A study of Mus musculus with 3 samples.

Results

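The genes *Ucn3*, *Trpm5*, *Cib3*, *Muc4*, *Tmem215* and *Prlr* were followed in mouse pancreatic beta cells after inactivation of Taf4, a subunit of the general transcription factor TFIID. They are 6 of the 17226 genes listed in the series. They were chosen by measured values of these libraries, either a low level 5 weeks after Taf4 inactivation or a leading place among the genes of wild-type (WT) beta cells, so their WT and 5-week levels in beta cells are a description. A common loss by 5 weeks did not hold for all of them. *Tmem215* kept 56.2% of its WT level at 5 weeks and *Prlr* kept 23.5%, whereas *Trpm5*, *Cib3*, *Muc4* and *Ucn3* kept between 0.968% and 5.52%.

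Islets of Langerhans of C57/Bl6 mice, which the labels describe as male, gave 3 single-cell RNA-seq libraries. For WT, 300 islets came from 1 mouse, and the labels give no time. The 1-week library and the 5-week library were each made from 300 islets pooled from 2 mice labelled TAF4 KO, 1 week or 5 weeks after inactivation. These carried *Taf4* lox/lox alleles and *Ins1*::CreERT2, a tamoxifen-dependent recombinase driven by an insulin gene and thus active in beta cells, and were injected as adults. Control animals of the study carried the same driver and received tamoxifen, but the labels of the WT library say only wild type. As each condition had a single library, conditions could not be tested against each other, and genotype, animals and library cannot be told apart.

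The mature beta cell is marked by genes for glucose uptake, ion channels and peptide signals that are read by the neighbouring cells of the islet. *Ucn3* encodes urocortin 3, a peptide of the corticotropin-releasing factor (CRF) family that beta cells release with insulin and that acts through the receptor Crhr2 on delta cells. *Prlr* encodes the prolactin receptor, which signals through Jak2 and Stat5 and is known for beta cell growth in pregnancy. *Trpm5* encodes a calcium-activated cation channel of taste cells and beta cells, and *Cib3* a small calcium- and integrin-binding protein. *Muc4* encodes a membrane-bound mucin that binds the receptor Erbb2, and *Tmem215* a transmembrane protein.

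Beta cells were barcodes with at least 20% *Ins2* and under 3% *Gcg* among their unique molecular identifiers (UMIs, counted RNA molecules), alpha cells had at least 15% *Gcg*, and delta cells had at least 5% *Sst*. In the 1-week library the limits were 5%, 8% and 1.5% in barcodes of at least 5000 UMIs, and a barcode meeting more than 1 limit was counted in each class. This gave 8271 WT, 562 1-week and 5685 5-week beta cells, with a median of 1656, 24754.5 and 3868 UMIs per cell. All 10 beta markers, among them *Iapp*, *Mafa* and *Pdx1*, were detected in the beta cells of each library. All 10 were also detected in WT and 5-week alpha cells, so detection does not tell the classes apart. Levels are in CPM, a gene's UMIs summed over a class and scaled to 1000000 UMIs in that class, and the values in parentheses are exact 95% intervals that cover counting error only.

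Several facts of the libraries touch every comparison. The WT library held 17357 UMIs of *Xist*, the RNA of the inactive X chromosome, and 0 of the Y-linked *Ddx3y*, whereas the mutant libraries held 17 and 11 of *Xist* and 1488 and 1349 of *Ddx3y*, so the library labelled WT went against its male label. Libraries shared between 2 and 33 barcodes. The 10 acinar markers summed to 4971 CPM in WT, 15.9 CPM in 1-week and 573 CPM in 5-week beta cells, and *Sst* was at 261, 38.7 and 2966 CPM. *Taf4* had 75, 113 and 99 UMIs in the beta cells of the 3 libraries, or 4.68, 7.53 and 3.54 CPM. The UMIs come from the 3′ ends of transcripts, and whether these lie in the deleted part is not given in the sources used here. The part of these differences in the results was not tested.

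In CPM the median gene was not level between libraries. Over all genes with at least 100 UMIs in the beta cells of both libraries together, the median log2 ratio was 1.15 for 1 week over WT, 0.18 for 5 weeks over WT and -0.98 for 5 weeks over 1 week. *Ins1* and *Ins2* together took 59.1% of WT, 39.4% of 1-week and 59.6% of 5-week beta cell UMIs. The log2 ratios of the 6 genes over WT in beta cells are therefore also given relative to the median gene.

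The promoters of *Trpm5* and *Tmem215*, the most and the least reduced members, and of *Muc4* and *Ucn3*, which lie between them, are shown for reference, as the 250 bases before the transcription start in RefSeq (GRCm38.p6, which is mm10), 5′ to 3′ on the gene's strand. Capitals mark matches, on either strand, to the motifs searched: the TATA box (TATAAA), the E-box (CANNTG), the MAF type (TGCTGAC), the PDX1 type (CTAATG), the NKX2-2 type (TTAAGTG), the FOXA type (TGTTTAC), the HNF1 type (GTTAAT), the CRE type (TGACG), the CCAAT box and the GC box (GGGCGG).
Trpm5, chr7:143094643-143094892, minus strand: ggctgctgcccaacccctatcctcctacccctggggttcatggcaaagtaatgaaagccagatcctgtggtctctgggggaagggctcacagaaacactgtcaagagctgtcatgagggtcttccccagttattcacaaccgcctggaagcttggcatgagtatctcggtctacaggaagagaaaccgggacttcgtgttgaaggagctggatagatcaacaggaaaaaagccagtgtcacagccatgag
Muc4, chr16:32735636-32735885, plus strand: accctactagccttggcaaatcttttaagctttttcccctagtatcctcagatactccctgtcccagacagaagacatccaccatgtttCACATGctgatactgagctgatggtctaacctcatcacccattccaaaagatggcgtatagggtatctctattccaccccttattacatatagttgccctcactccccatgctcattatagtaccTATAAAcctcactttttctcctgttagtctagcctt
Ucn3, chr13:3945350-3945599, minus strand: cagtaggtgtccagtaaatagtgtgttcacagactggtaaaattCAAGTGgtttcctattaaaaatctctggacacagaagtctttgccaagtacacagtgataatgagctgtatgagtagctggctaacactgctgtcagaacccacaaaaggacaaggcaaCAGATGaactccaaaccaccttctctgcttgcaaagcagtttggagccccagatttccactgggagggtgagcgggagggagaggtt
Tmem215, chr4:40471930-40472179, plus strand: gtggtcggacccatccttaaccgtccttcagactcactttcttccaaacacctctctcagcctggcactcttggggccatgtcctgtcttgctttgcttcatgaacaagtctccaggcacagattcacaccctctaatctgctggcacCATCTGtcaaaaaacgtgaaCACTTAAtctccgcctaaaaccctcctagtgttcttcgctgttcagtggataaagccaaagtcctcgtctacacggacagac

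The *Trpm5* window held none of these motifs. The *Muc4* window held the TATA box at position -36 from the start, a motif in 12.4% of the 32851 promoters searched, and an E-box at -161. Both matches in the *Ucn3* window, at -206 and -87, were E-boxes, which 66.2% of all promoters held. The *Tmem215* window held the NKX2-2 type motif at -82, found in 2.10% of promoters, and an E-box at -102. No motif of the list was thus shared by all 4 windows shown. A window at a second *Tmem215* start, not shown, held E-boxes at -134 and -22 and no NKX2-2 type motif. Of the other windows not shown, that of *Cib3* held 5 E-boxes and those of *Prlr* held 1, 3 and 0. These letters are a description of the windows and say nothing about binding.

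*Trpm5* (chromosome 7, 143071529 to 143094642) had the largest difference of the 6. It was at 148 CPM (142 to 154, 2370 UMIs) in WT, 6.93 CPM (5.67 to 8.40, 104 UMIs) in 1-week and 1.43 CPM (1.02 to 1.95, 40 UMIs) in 5-week beta cells. The 3 intervals did not overlap, and the level was lower at each later library. The log2 ratio was -4.41 (-4.71 to -4.13) for 1 week over WT and -6.69 (-7.18 to -6.24) for 5 weeks over WT, or -5.56 and -6.87 relative to the median gene. Of the 9207 genes measured for 5 weeks over WT, 1 had a lower ratio, and that gene was *Xist*.

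*Cib3* (chromosome 8, 72204335 to 72213086) was at 35.0 CPM (32.1 to 38.0, 561 UMIs) in WT, 4.53 CPM (3.52 to 5.75, 68 UMIs) at 1 week and 0.572 CPM (0.327 to 0.929, 16 UMIs) at 5 weeks. Its levels were again ordered WT, 1 week, 5 weeks with no overlap. The log2 ratio was -2.95 (-3.33 to -2.58) at 1 week and -5.93 (-6.75 to -5.22) at 5 weeks over WT, with -4.10 and -6.11 relative to the median gene. The 16 UMIs left at 5 weeks lay in 16 cells of 5685.

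*Muc4* (chromosome 16, 32735886 to 32782391) was sparse in every library. It was at 12.2 CPM (10.6 to 14.1, 196 UMIs) in WT, 1.07 CPM (0.610 to 1.73, 16 UMIs) at 1 week and 0.393 CPM (0.196 to 0.703, 11 UMIs) at 5 weeks. The mutant libraries lay below WT, and their intervals overlapped each other, with a log2 ratio of 5 weeks over 1 week of -1.44 (-2.69 to -0.24), or -0.46 (-1.72 to 0.73) relative to the median gene. The log2 ratio was -3.52 (-4.35 to -2.78) at 1 week and -4.96 (-5.98 to -4.09) at 5 weeks over WT, or -4.67 and -5.14 relative to the median gene. *Muc4* overlaps *Muc20* and *Gm34825* in the annotation, so reads shared with these genes cannot be told apart where strand was not used. *Muc20* itself had 0 UMIs in the beta cells of each library.

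*Ucn3* (chromosome 13, 3940688 to 3945349) differed in pace. It was at 134 CPM (128 to 140, 2151 UMIs) in WT, 41.9 CPM (38.7 to 45.4, 629 UMIs) at 1 week and 7.40 CPM (6.42 to 8.48, 207 UMIs) at 5 weeks, with no overlap. The log2 ratio was -1.68 (-1.81 to -1.55) for 1 week over WT and -4.18 (-4.39 to -3.97) for 5 weeks over WT, or -2.83 and -4.36 relative to the median gene. The step from 1 week to 5 weeks, a log2 ratio of -2.50 (-2.74 to -2.27), was larger than the step to 1 week in CPM, but smaller than it relative to the median gene, where it was -1.53.

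*Prlr* (chromosome 15, 10177238 to 10349190) was at 363 CPM (354 to 372, 5823 UMIs) in WT, 106 CPM (101 to 111, 1591 UMIs) at 1 week and 85.2 CPM (81.9 to 88.7, 2385 UMIs) at 5 weeks. Most of its difference from WT was thus present at 1 week. The log2 ratio over WT was -1.77 (-1.86 to -1.69) at 1 week and -2.09 (-2.16 to -2.02) at 5 weeks, or -2.93 and -2.27 relative to the median gene. From 1 week to 5 weeks *Prlr* was lower in CPM by a log2 ratio of -0.32 (-0.41 to -0.22), and this direction flipped to 0.66 relative to the median gene and to 0.27 with insulin left out of the total. *Prlr* overlaps *Gm41268* in the annotation.

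*Tmem215* (chromosome 4, 40472180 to 40475653) stayed the closest to WT. It was at 91.2 CPM (86.6 to 96.0, 1463 UMIs) in WT, 60.7 CPM (56.8 to 64.8, 910 UMIs) at 1 week and 51.3 CPM (48.6 to 54.0, 1434 UMIs) at 5 weeks. The log2 ratio over WT was -0.59 (-0.71 to -0.47) at 1 week and -0.83 (-0.94 to -0.73) at 5 weeks, or -1.74 and -1.01 relative to the median gene. As for *Prlr*, the small difference between 5 weeks and 1 week, a log2 ratio of -0.24 (-0.36 to -0.12), flipped to 0.73 relative to the median gene and to 0.34 with insulin left out of the total.

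**Figure D1:**
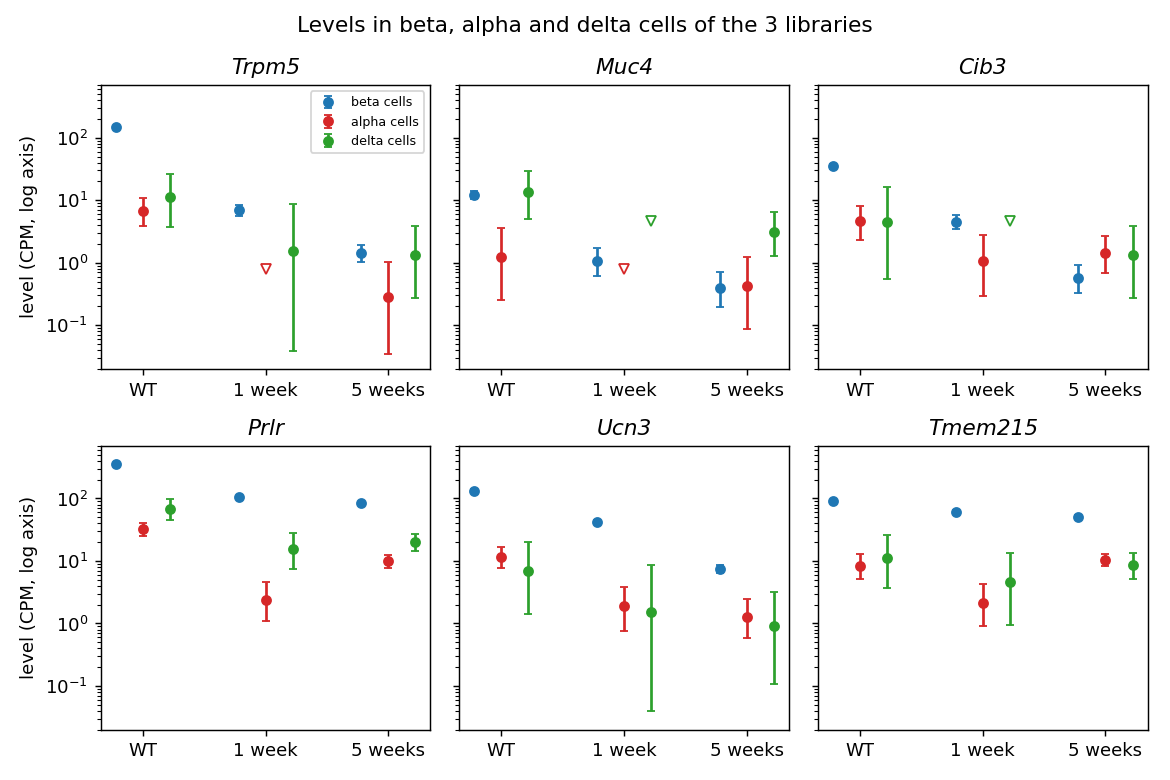
Levels of the 6 genes (CPM, log axis) in beta, alpha and delta cells of the WT, 1-week and 5-week libraries. Points are CPM from summed UMIs, bars are exact 95% counting intervals, and open triangles mark the level that 0 UMIs allow. Beta cells sit above alpha and delta cells for *Prlr*, *Ucn3* and *Tmem215* in all 3 libraries. At 5 weeks *Cib3* lies lower in beta than in alpha cells, with overlapping bars on 16 and 10 UMIs. *Muc4* at 5 weeks is not resolved between beta and alpha cells and lies lower in beta than in delta cells.

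The 1-week levels gave an order to the reductions. The share of the WT level left at 1 week was 4.69% (3.82 to 5.71) for *Trpm5*, 8.73% (4.89 to 14.5) for *Muc4* and 13.0% (9.93 to 16.7) for *Cib3*. It was 29.2% (27.6 to 30.9) for *Prlr*, 31.3% (28.6 to 34.2) for *Ucn3* and 66.5% (61.2 to 72.3) for *Tmem215*. The intervals of the neighbours *Trpm5* and *Muc4*, *Muc4* and *Cib3*, and *Prlr* and *Ucn3* overlapped, so these pairs were not ordered at this depth. *Cib3* and *Prlr*, and *Ucn3* and *Tmem215*, were separated beyond counting error. So were *Trpm5* and *Cib3*, which were not neighbours. The genes are therefore described as a group of 3 at 13.0% or less, the pair *Prlr* and *Ucn3*, and *Tmem215*. Within the first group *Trpm5* lay below *Cib3*, and *Muc4* could not be placed.

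At 5 weeks no pair separated at 1 week had changed its order. *Trpm5* kept 0.968% (0.690 to 1.32), *Cib3* 1.64% (0.928 to 2.68), *Muc4* 3.22% (1.58 to 5.89) and *Ucn3* 5.52% (4.76 to 6.37) of the WT level. *Ucn3* and *Prlr*, side by side at 1 week, stood apart at 5 weeks, since *Prlr* kept 23.5% (22.4 to 24.6) and *Tmem215* 56.2% (52.2 to 60.5). Of the log2 difference between WT and 5 weeks, 84.9% was present at 1 week for *Prlr*, 71.0% for *Muc4*, 70.7% for *Tmem215*, 66.0% for *Trpm5*, 49.7% for *Cib3* and 40.1% for *Ucn3*, in CPM. Relative to the median gene these shares were 129% for *Prlr*, 90.9% for *Muc4*, 172% for *Tmem215*, 81.0% for *Trpm5*, 67.0% for *Cib3* and 64.9% for *Ucn3*, so the order changed, with *Ucn3* lowest on both scales. In CPM the same share had a median of 66.0% and quartiles of 38.0% and 84.9% over the 41 genes that were at or under 25% at 5 weeks and at least 4-fold higher in WT beta than in WT alpha cells, *Tmem215* not being among them.

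**Figure D2:**
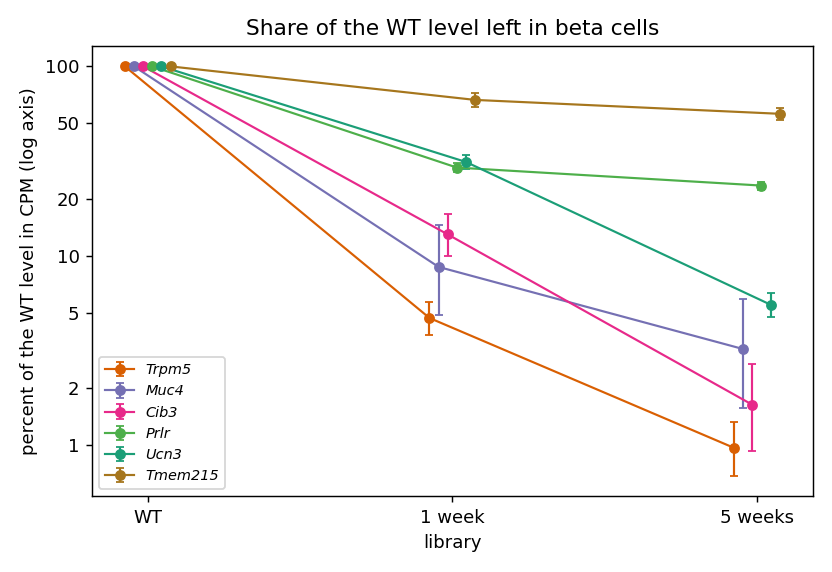
Share of the WT level left in beta cells (percent, log axis) for each gene in the WT, 1-week and 5-week libraries, with exact 95% counting intervals; lines join the libraries of 1 gene. *Prlr* and *Ucn3* start together at 29.2% and 31.3% at 1 week and part to 23.5% and 5.52% at 5 weeks, in CPM. Relative to the median gene, *Prlr* and *Tmem215* are higher at 5 weeks than at 1 week.

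At 1 week, 3 of the 6 genes were at or under 25% of the WT level, a level reached by 1.14% of the 9233 genes measured and by 16.9% of the 148 genes at least 4-fold higher in WT beta than in WT alpha cells, all 6 members included. At or under 50% were 5 of the 6, against 2.49% of all genes and 37.2% of the 148. The first count was 5 of 6 with insulin left out of the total, where *Ucn3* kept 21.1% and *Prlr* 19.7%, and also relative to the median gene, where 2.76% of all genes and 37.2% of the 148 were at or under 25%. The WT levels that helped choose the members enter the 1-week contrast, so nothing is read from its counts. At 5 weeks 5 of the 6 were at or under 25%, where the background was 1.26% of 9207 genes and 27.7% of the 148. The same 5 were at or under 50%, against 4.18% and 44.6%. As this contrast chose the members, nothing is read from it. For 5 weeks over 1 week, *Cib3* and *Muc4* lay under the minimum of 100 UMIs, and 3 of the 6 (*Cib3*, *Ucn3* and *Trpm5*) were at or under 25% of the 1-week level against 5.12% of 9715 genes and 16.4% of 128 genes higher in WT beta cells. At or under 50%, a level that 48.7% of all genes and 43% of the 128 reached in CPM, were 4 of the 6. Relative to the median gene 1 of the 6, *Cib3* with 24.8%, was at or under 25%, while *Ucn3* was at 34.7% and *Trpm5* at 40.6%. The 5-week levels that helped choose the members enter this contrast too, so nothing is read from these counts. The median log2 ratio over the 6 was -2.36, -4.57 and -1.86 for the 3 contrasts, against 1.15, 0.18 and -0.98 over all genes and -0.22, -0.89 and -0.80 over the genes higher in beta cells. The contrasts with WT share the WT library.

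**Figure D3:**
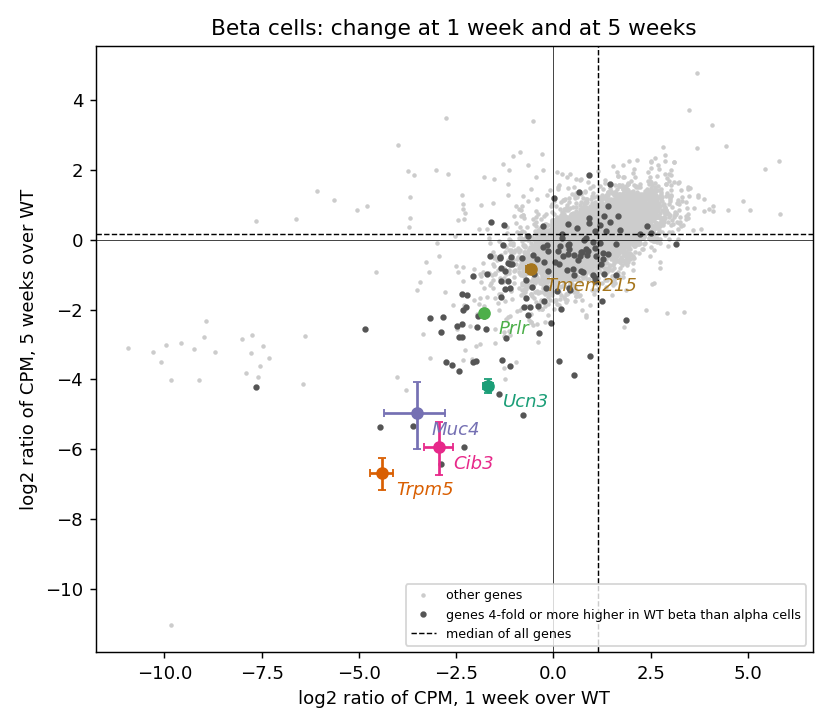
Log2 ratio of CPM in beta cells for 1 week over WT (horizontal) and 5 weeks over WT (vertical), for all measured genes with UMIs in each library (grey), for genes at least 4-fold higher in WT beta than alpha cells (dark), and for the 6 genes with exact 95% counting intervals. Dashed lines are the medians of all genes, 1.15 and 0.18; *Trpm5* lies lowest of the 6 on both axes at -4.41 and -6.69, and *Tmem215* highest at -0.59 and -0.83.

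Depth alone changes how many cells show a gene, so each cell was also thinned to 1000 UMIs, which left out 502 WT and 207 5-week beta cells below that depth. *Prlr* then had a UMI in 29.4% of WT, 9.43% of 1-week and 8.45% of 5-week beta cells, and without thinning in 46.3%, 81.1% and 31.2%. For *Tmem215* the thinned shares were 8.66%, 5.69% and 4.93%, and for *Ucn3* 12.8%, 4.80% and 0.730%. *Trpm5* went from 13.6% in WT to 0.534% at 1 week and 0.0913% at 5 weeks. The last value, 5 of 5478 cells (0.0296 to 0.213), had an interval that overlapped that of 5-week alpha cells, 0.0332% (0.000842 to 0.185), which should lack the gene. Over all UMIs, *Trpm5* was 4.99-fold (1.30 to 42.7) higher in 5-week beta than alpha cells, on 40 and 2 UMIs. *Cib3* was in 3.54%, 0.356% and 0.0730% (0.0199 to 0.187) of thinned beta cells. The last interval overlapped that of 5-week alpha cells, 0.133% (0.0362 to 0.340), with 4 cells in each class. *Muc4* was in 1.06%, 0% and 0.0548% of thinned beta cells. The 0 of 562 cells allows a share of up to 0.534%. In 5-week alpha cells the thinned shares of *Prlr* (0.632%), *Tmem215* (0.765%) and *Ucn3* (0.0997%) were below those of 5-week beta cells, with no overlap of the intervals.

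At this depth 46.7% of WT beta cells held no UMI of the 6 genes, against 81.1% at 1 week and 86.3% at 5 weeks. In 1.80% of WT beta cells 3 or more of the 6 were seen together, and in 0% of the mutant cells. The UMIs left at 5 weeks were spread over many cells. The 207 *Ucn3* UMIs lay in 196 cells, the 40 *Trpm5* UMIs in 38 cells and the 11 *Muc4* UMIs in 11 cells, with no cell above 4 UMIs of any of these.

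Alpha and delta cells were set beside beta cells, with *Ins2* as a measure of beta cell RNA counted in other classes. In WT alpha cells *Ins2* was at 6.65% of its beta level, and the corresponding intervals of *Ucn3*, *Trpm5*, *Cib3*, *Muc4* and *Tmem215* held that value. *Prlr*, at 32.0 CPM (25.3 to 40.0), was at 8.82% (6.95 to 11.0) of its beta level, just above it. In 1-week alpha cells *Trpm5* and *Muc4* had 0 UMIs, which allows up to 0.806 CPM, and *Ins2* was at 2.20% of its beta level. *Cib3*, with 4 UMIs, was at 23.7% (6.28 to 63.5) of its low 1-week beta level. *Prlr* was at 2.28% (1.04 to 4.34) and *Tmem215* at 3.54% (1.52 to 7.01) of their beta levels.

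On 16 beta and 10 alpha UMIs, *Cib3* at 5 weeks was lower in beta than in alpha cells, and the interval only just left out equal levels. *Cib3* was at 1.43 CPM (0.686 to 2.63, 10 UMIs) in alpha cells, 250.3% (102 to 587) of its level in beta cells. *Muc4* was at 0.429 CPM (0.0886 to 1.25, 3 UMIs) in alpha cells, and its beta level was 0.916-fold (0.242 to 5.11) that level, which was not resolved at this depth. *Ucn3* was still higher in beta than in alpha cells, its alpha level being 17.4% (7.85 to 33.7) of the beta level. So were *Trpm5* by the fold given above, *Prlr* with 11.6% (8.98 to 14.7) and *Tmem215* with 20.4% (15.9 to 25.8). *Ins2* in 5-week alpha cells was at 11.3% of its beta level, which the intervals of *Ucn3*, *Trpm5* and *Prlr* held.

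The delta class, set by *Sst* alone, differed from the alpha class for *Muc4* and *Prlr*. *Muc4* was at 13.6 CPM (4.99 to 29.6, 6 UMIs) in WT delta cells, 111% (40.4 to 247) of its beta level where *Ins2* was at 9.82%. In 5-week delta cells *Muc4* was at 3.14 CPM (1.26 to 6.46, 7 UMIs), 797% (262 to 2253) of its level in 5-week beta cells. *Trpm5* and *Cib3* were not resolved between beta and delta cells at 5 weeks. Their beta levels were 1.06-fold (0.339 to 5.38) and 0.426-fold (0.122 to 2.28) their delta levels, each with 3 delta UMIs. *Ucn3*, *Tmem215* and *Prlr* were higher in 5-week beta than delta cells, by 8.26-fold (2.26 to 68.7), 6.02-fold (3.84 to 10.0) and 4.23-fold (3.15 to 5.81). *Prlr* was at 68.0 CPM (45.9 to 97.1, 30 UMIs) in WT delta cells, 15.5 CPM (7.43 to 28.5, 10 UMIs) at 1 week and 20.2 CPM (14.7 to 27.0, 45 UMIs) at 5 weeks. As a share of the beta level this was 18.7% (12.6 to 26.8), 14.6% (6.99 to 26.9) and 23.6% (17.2 to 31.7), with *Ins2* at 9.82%, 2.34% and 18.5%. The 1-week delta class held 38 cells, and 128 5-week barcodes met both the beta and the delta limits.

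The 562 beta cells of the 1-week library were not uniform. They were ranked by the share of *Ins1* among insulin UMIs, which was itself lower in the mutant libraries (26.0% in WT, 7.20% at 1 week and 3.77% at 5 weeks), and cut into 3 terciles holding 0.931%, 2.91% and 10.7% *Ins1*. From the lowest to the highest tercile, the level of *Ucn3* was 26.9 (22.1 to 32.4), 40.2 (34.6 to 46.4) and 53.0 (47.5 to 59.0) CPM. The level of *Tmem215* was 44.5 (38.3 to 51.5), 57.9 (51.2 to 65.3) and 73.3 (66.7 to 80.3) CPM. The highest tercile was thus 1.97-fold (1.58 to 2.47) above the lowest for *Ucn3* and 1.65-fold (1.38 to 1.97) for *Tmem215*. Terciles of the same cells by UMIs per cell differed as well, the deepest being 2.33-fold (1.73 to 3.20) above the shallowest for *Ucn3*, 1.28-fold (1.05 to 1.59) for *Tmem215* and at a ratio of 0.817 (0.711 to 0.941) for *Prlr*.

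*Prlr* showed no such slope over *Ins1* share. It was at 108, 107 and 104 CPM over the same terciles, a ratio of highest to lowest of 0.962 (0.852 to 1.09). *Trpm5* was at 4.65, 8.43 and 7.33 CPM with a ratio of 1.58 (0.906 to 2.85), and *Cib3* at 3.18, 6.48 and 3.98 CPM with a ratio of 1.25 (0.617 to 2.67), so neither differed beyond counting error. *Muc4*, with 16 UMIs in all, could not be resolved. The terciles also differed in *Ddit3*, a transcription factor gene of the cellular stress response, which was at 3688, 2156 and 642 CPM from the lowest to the highest *Ins1* tercile, and in median depth, 22191.5, 25038 and 30728 UMIs.

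Terciles by *Ddit3* itself gave wider differences. *Ddit3* was at 129, 1426 and 4882 CPM in the 3 groups of cells, whose mitochondrial share was 4.68%, 2.74% and 1.89%. The part of stress, depth or RNA quality in these values was not tested. *Tmem215* was at 86.0 CPM (78.5 to 94.1) in the tercile lowest in *Ddit3*, an interval that overlaps that of WT, and at 34.6 CPM (29.3 to 40.7) in the highest. *Ucn3* was at 56.5 CPM (50.4 to 63.1) and 20.2 CPM (16.2 to 24.9) in these groups, and *Prlr* at 118 CPM (109 to 128) and 81.4 CPM (73.1 to 90.4). The ratio of highest to lowest was 0.358 (0.279 to 0.455) for *Ucn3*, 0.403 (0.333 to 0.485) for *Tmem215* and 0.688 (0.602 to 0.785) for *Prlr*, while the intervals of *Trpm5*, *Cib3* and *Muc4* held 1.

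In the tercile lowest in *Ddit3*, *Trpm5* was at 4.78%, *Muc4* at 7.41% and *Cib3* at 14.5% of the WT level. The log2 ratios over WT were -4.39 (-4.88 to -3.93), -3.75 (-5.39 to -2.51) and -2.79 (-3.39 to -2.24). *Prlr* was at 32.6%, *Ucn3* at 42.1% and *Tmem215* at 94.3% of WT in the same cells. The median gene of this tercile was at a log2 ratio of 0.65 over WT, and *Tmem215*, at -0.08 (-0.24 to 0.07), was at -0.74 relative to it. In the tercile highest in *Ddit3*, where the median gene was at 1.46, *Tmem215* was at 38.0%, *Prlr* at 22.4% and *Ucn3* at 15.1% of WT.

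**Figure D4:**
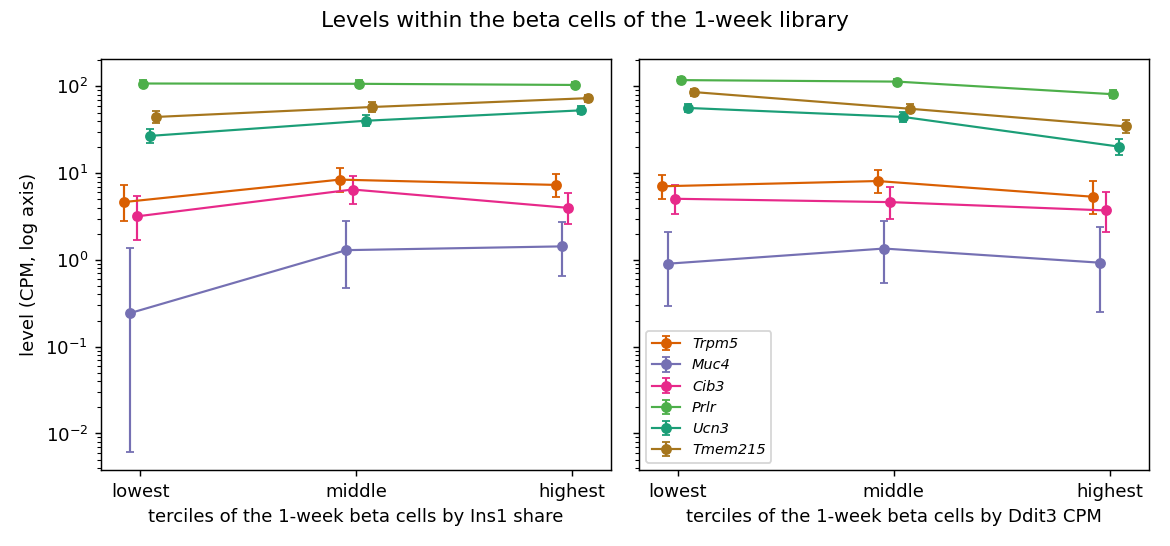
Levels of the 6 genes (CPM, log axis) in terciles of the 562 beta cells of the 1-week library, ranked by the *Ins1* share of insulin UMIs (left) and by *Ddit3* CPM (right), with exact 95% counting intervals. *Ucn3* and *Tmem215* are higher at high *Ins1* and lower at high *Ddit3*, whereas *Prlr* stays between 104 and 108 CPM over the *Ins1* terciles.

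In the 5-week beta cells the terciles by *Ins1* share did not differ for any of the 6 genes beyond counting error. *Ucn3* was at 7.66, 7.20 and 7.44 CPM, *Tmem215* at 50.4, 52.8 and 50.2 CPM and *Prlr* at 84.4, 85.5 and 85.4 CPM from the lowest to the highest tercile. The ratio of highest to lowest was 0.971 (0.672 to 1.41) for *Ucn3*, against 1.97 at 1 week, and 0.995 (0.865 to 1.15) for *Tmem215*, against 1.65. The 5-week terciles spanned 1.67% to 5.63% *Ins1*, a narrower range than at 1 week.

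Over the 9 pools of beta, alpha and delta cells in the 3 libraries, *Trpm5* and *Cib3* had the profiles most alike among the 6, with a Pearson correlation of 0.980 on log2(CPM + 5), and *Tmem215* was most like *Prlr* (0.906). The lowest pair was *Muc4* and *Tmem215* (0.356). Pools of 1 library share its depth and free RNA, and the points are not independent. All 6 members, and all genes compared with them, were at least 4-fold higher in WT beta than in WT alpha cells. Part of each correlation is thus set by that choice, and nothing is read from its size. Among the other genes higher in WT beta cells, those most like the mean profile of the 6 were *Olfm4* (0.978), *Asb11* (0.971), *2410021H03Rik* (0.964), *Slc2a2* (0.960), *Gm30173* (0.959), *Gm17767* (0.953), *Gm27168* (0.952) and *Tmigd3* (0.925). *Slc2a2*, the glucose transporter of the beta cell, was at 198 CPM in WT, 26.9 CPM at 1 week and 2.29 CPM at 5 weeks. The others lay between 6.79 CPM (*Asb11*) and 28.5 CPM (*Tmigd3*) in WT beta cells, not far above the 5 CPM added before the log2.

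The genes most like single members were drawn from the same 142 genes. *Fmo1* (0.983) and *Tmigd3* (0.968) were the most like *Cib3*, *Gm30173* (0.976) and *Olfm4* (0.968) the most like *Trpm5*, and *Gm17767* (0.973) and *2410021H03Rik* (0.969) the most like *Ucn3*. *Tmem215* was most like *Sytl4* (0.975), a granule docking gene that kept 70.2% of WT at 1 week and 50.4% at 5 weeks, and next *Emilin1* (0.947). *Prlr* was most like *Ins1* (0.958), which kept 18.5% and 14.6%, and *G6pc2* (0.954), which kept 21.6% and 33.7%. *Muc4* was most like *2200002J24Rik* (0.897) and *Cd79a* (0.872).

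Most partners of the 6 genes that could be measured were above 50% of their WT level at 5 weeks, but many could not be measured. Of the 6 other CRF ligands and receptors 0 had 20 UMIs in beta cells of WT and a mutant library together, and their levels in alpha and delta cells were not analysed here. Of the 5 measured genes beside *Trpm5* in its channel family and taste-type cascade, 0 were at or under 25% at 5 weeks. At or under 50% was 1, *Itpr3*, an inositol trisphosphate receptor gene, with 47.7% left. Over all genes these shares were 1.26% and 4.18%. The related channel genes *Trpm4* and *Trpm7* kept 86.2% and 123% at 5 weeks. Beside *Cib3*, *Cib2* kept 48.0% and *Cib1* 71.2%, so 1 of 2 was at or under 50%, against the same 4.18%. Of the 9 other mucin and ERBB genes only *Erbb3* was measured, with 6 UMIs in WT and 20 at 5 weeks.

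Prolactin signalling was better covered, with 14 of 16 genes measured at 5 weeks over WT. At or under 25% was 1, *Tph2*, with 20 UMIs in WT and 2 at 5 weeks, and at or under 50% were 2, against 1.26% and 4.18% of all genes. The kinase gene *Jak2* kept 121%, *Stat5a* 97.4% and *Stat5b* 119% of their WT level. Among the feedback inhibitors, which Stat5 induces, *Socs2* kept 39.2% and *Cish* 51.4%, whereas *Socs3* was at 301%. At 1 week *Socs2* was at 130% and *Cish* at 106% in CPM, and relative to the median gene both were lower, at log2 ratios of -0.77 and -1.07. The list had a median log2 ratio of -0.06 at 5 weeks and 0.76 at 1 week, against 0.18 and 1.15 over all genes.

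Of 31 measured genes of beta cell function and maturity, 6 were at or under 25% at 5 weeks and 9 at or under 50%, against 1.26% and 4.18% of all genes and 27.7% and 44.6% of those higher in WT beta cells. These 6 were *Slc2a2* at 1.16%, *Ffar1* (a fatty acid receptor) at 13.2%, *Ins1* at 14.6%, *Gipr* (an incretin receptor) at 16.3%, *Slc30a8* (the zinc transporter of insulin granules) at 19.4% and *Nnat* at 24.7%. Among the transcription factor genes of the list, *Pdx1* (231%), *Mafa* (161%), *Foxa2* (152%), *Nkx6-1* (139%) and *Rfx6* (118%) were above the WT level in the same cells. *Isl1* (99.0%), *Neurod1* (86.3%), *Pax6* (78.9%), *Nkx2-2* (75.7%) and *Mlxipl* (39.5%) were below it. At 1 week 4 of the 31 were at or under 25%, namely *Slc2a2* (13.6%), *Ins1* (18.5%), *Nnat* (20.1%) and *G6pc2* (21.6%), against 1.14% of all genes and 16.9% of those higher in WT beta cells. The median log2 ratio of the list was 0.18 at 1 week and -0.34 at 5 weeks in CPM, below the 1.15 and 0.18 over all genes.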

How the data were processed

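Single-cell RNA-seq of islet cells was deposited as unnormalized UMI counts for each gene in each barcode of 3 libraries, 1 per condition. Per the labels and methods, live cells were sorted, 3′ libraries were prepared on the 10X Genomics Chromium, and the authors processed the reads with bcl2fastq 2.17.1.14, Cell Ranger 3.1 (mm10) and Seurat 3.1.4; in the WT library only, they removed barcodes with hormones of more than 1 class and called doublets, and scaled it down to 12000 barcodes. No doublet caller was run here. The tables held 12000, 2295 and 11229 barcodes with 19472212, 23131247 and 39408284 UMIs.

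The members and lists were chosen with earlier results of these data known. UMIs were summed per class and library. Intervals of levels are exact Poisson, those of ratios exact conditional (Clopper-Pearson) and those of shares exact binomial, at 95%; a count of 0 allows up to 3 counts. They cover counting error only, and no p-value was computed. Ratios over all genes required 100 UMIs in both libraries together, list genes 20. Cells were thinned to 1000 UMIs with seed 1. Likeness was computed on log2(CPM + 5) over 142 other genes with at least 100 UMIs in WT beta cells and at least 4-fold the WT alpha level. Named were the members, list genes over the minimum, the 8 genes most like the members and the 2 most like each; *Ddit3* ranked cells. RefSeq tables of GRCm38.p6 gave positions and promoters for all 6 members. Python 3.11.15, numpy 2.4.6, scipy 1.17.1 and matplotlib 3.10.9 were used, and the intervals were tested on simulated data. Denominators, gates, cell filters, thinning and subtraction of the alpha level were varied.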

Additional observations from a re-analysis of the deposited data

Results flagged for a closer look

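Between 1 week and 5 weeks, *Tmem215* and *Prlr* differed in opposite directions in alpha and in beta cells in CPM. In alpha cells the log2 ratio of 5 weeks over 1 week was 2.28 (1.23 to 3.55) for *Tmem215*, from 8 to 73 UMIs, and 2.03 (1.02 to 3.22) for *Prlr*, from 9 to 69 UMIs. In beta cells it was -0.24 and -0.32. Relative to the median gene of each class, which in alpha cells was at -0.55 over 7036 genes, the ratios were 2.83 and 2.58 in alpha and 0.73 and 0.66 in beta cells, so the directions were not opposite on that scale. *Ins2* in alpha cells had a log2 ratio of 3.01 between the same libraries, or 3.56 relative to the median gene, and its part in these values was not tested. The difference between the cell classes was itself not tested, as there was 1 library per time.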

How the results depend on the processing

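No paired analysis was possible because each condition had 1 library. For the same reason no replicate was left out. *Cib3* and *Muc4* at 5 weeks rest on 16 and 11 UMIs. Of 208 values of single members under the alternatives, 157 stayed within the counting interval, 45 moved outside it in the same direction and 6 changed direction.

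The median log2 ratio of the 6 genes for 1 week over WT was -2.36. It was -2.93 with *Ins1* and *Ins2* left out of the total and -2.60 with cells thinned to 1000 UMIs. Limits of 200 to 1500 detected genes and 15% mitochondrial UMIs, which the study states after describing its WT and 5-week aggregate, gave -3.93. In the 1-week library they were applied here on top of the minimum of 5000 UMIs, which left 17 of 562 beta cells. The study itself analysed 2295 1-week cells, the number of barcodes used here. With these limits 9 of 15 pairs of members kept their order, and *Muc4* moved from 8.73% to 53.0% of WT. Relative to the median gene, chosen after seeing the data, the median for 1 week over WT was -3.51, and that for 5 weeks over 1 week was -0.88. For 5 weeks over WT the median was -5.64 with the alpha level subtracted, where *Cib3* and *Muc4* had no positive value. For 5 weeks over 1 week, *Tmem215* was at 0.34, 1.98 and 0.73 and *Prlr* at 0.27, 1.37 and 0.66 with insulin left out, under the limits on detected genes and mitochondrial UMIs, and relative to the median gene. The share of all genes at or under 25% was 1.75% (1 week over WT) with a minimum of 20 UMIs, and 9.70%, 6.68% and 10.0% for the 3 contrasts with a minimum of 1 UMI. The causes were not tested.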

Other observations

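The same ranking by *Ins1* share separated WT beta cells for part of the genes. *Cib3* was at 48.3 CPM (42.5 to 54.8) in the tercile of WT beta cells lowest in *Ins1* share, 33.0 CPM (28.5 to 38.0) in the middle tercile and 24.2 CPM (20.1 to 28.8) in the highest, a ratio of highest to lowest of 0.50 (0.40 to 0.62). *Muc4* ran the other way, with 9.51 CPM (7.01 to 12.6), 11.9 CPM (9.2 to 15) and 15.3 CPM (12.1 to 19.0) and a ratio of 1.61 (1.11 to 2.35). *Prlr* had a ratio of 1.15 (1.07 to 1.22) and *Ucn3* of 0.883 (0.792 to 0.984), and the intervals of *Trpm5* and *Tmem215* held 1. The terciles held 22.0%, 26.0% and 29.8% *Ins1* among insulin UMIs.

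At 5 weeks, 24 of 5685 beta cells had at least 16% *Ins1* among insulin UMIs, a limit chosen after seeing the data that 8173 of 8271 WT beta cells met. In these 24 cells *Ucn3* was at 43.9 CPM (17.6 to 90.4, 7 UMIs), against 7.46 CPM (6.27 to 8.80) in the 4006 cells under 4%, and *Prlr* at 163 CPM (106 to 239, 26 UMIs), against 85.3 CPM (81.2 to 89.6). *Muc4* had 2 of its 11 UMIs in these cells, at 12.5 CPM (1.52 to 45.3), and *Tmem215* was at 37.6 CPM (13.8 to 81.8). *Slc2a2* was at 56.4 CPM (25.8 to 107) in them and at 1.92 CPM (1.34 to 2.65) in the cells under 4%. At 1 week 18 of 562 beta cells met the limit, with *Ucn3* at 51.5 CPM (36.8 to 70.1) and *Tmem215* at 94.0 CPM (73.7 to 118).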
